A study of Drosophila melanogaster with 4 samples.

Results

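The insulin-like peptide pathway of Drosophila melanogaster was examined in pharate adults, the last stage of metamorphosis, when the adult is formed but has not left the pupal case. The set holds 10 genes, taken as the loci whose single gene name was Ilp2, Ilp3, Ilp5, Ilp6, CG14059 (the current Ilp8), ImpL2, InR, chico, foxo or Thor. They are 10 of 12066 loci with a single gene name and of 13866 loci in all. They were chosen by name with their FPKM values and differences between these libraries already known, so the values below are a description. There were 4 lines with 1 library each, LU.10580/CAG (called CAG), LU.10580hom (hom), LU.10580.tg1 (tg1) and LU.10580.tg2 (tg2). The sources used here do not give the meaning of these names, the sex or exact age of the animals, or how many were pooled in a library. All 4 lines carry LU.10580 in their names, and no treatment is named for any of them. The column of the CAG library is headed het in the deposited file.

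In flies, most insulin-like peptides bind the insulin receptor InR, which acts through the adaptor chico, a lipid kinase and the kinase Akt. Active Akt keeps the transcription factor foxo out of the nucleus and feeds into the TOR kinase, which promotes growth. When the signal is low, foxo turns on genes such as Thor, the 4E-BP that blocks the start of translation. Pharate adults do not feed, and the peptides of the brain and the fat body are both made at this stage.

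All values are FPKM, fragments normalised for transcript length and library size, as the authors deposited them. At least 1 FPKM was reached by 11380 to 11659 loci, depending on the library. The total depth is unknown. From the steps between the lowest values, hom had 0.774 of the depth of CAG, tg1 1.12 and tg2 1.16. Differences are taken between log2(FPKM + 1) values, so that changes of weakly expressed genes come out too small. A difference of at least 1, that is 2-fold on the FPKM + 1 scale, was called among the 11689 tested loci, those that averaged 1 FPKM or more. All 10 genes met that minimum, and none was listed at 0 in any library. Since no line was replicated, no difference was tested and no order of lines has a replicate check. Adult genes of the eye and flight muscle were abundant in all 4 libraries, with ninaE, the main rhodopsin, at 747 to 962 FPKM and the flight muscle actin Act88F at 5162 to 6415. All 6 tested loci of that list were lowest in hom, as deposited and under each scaling tried, with no difference past the call. They summed to 10629.6 FPKM in the CAG library, 9133 in hom, 11576 in tg1 and 12201 in tg2, and the median difference of hom from CAG was −0.27. The hom library also stood apart at Ilp8 and Thor, and the part of stage or tissue content in those values was not tested.

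The levels spanned more than an order of magnitude between genes, and 3 of the 10 genes varied by 1 or more between lines. Ilp8 was lowest in hom, Thor was highest in hom, and Ilp3 was lowest in CAG. The ranges of the other 7 genes, highest minus lowest library, lay between 0.28 and 0.68. Over all tested loci 11.6% had a range of at least 1, with a median range of 0.42, and the median range of the 10 genes was 0.59. Because the RNA is bulk RNA of pharate adults, fewer cells of a type and less RNA per cell cannot be told apart for any of these genes.

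**Figure D1:**
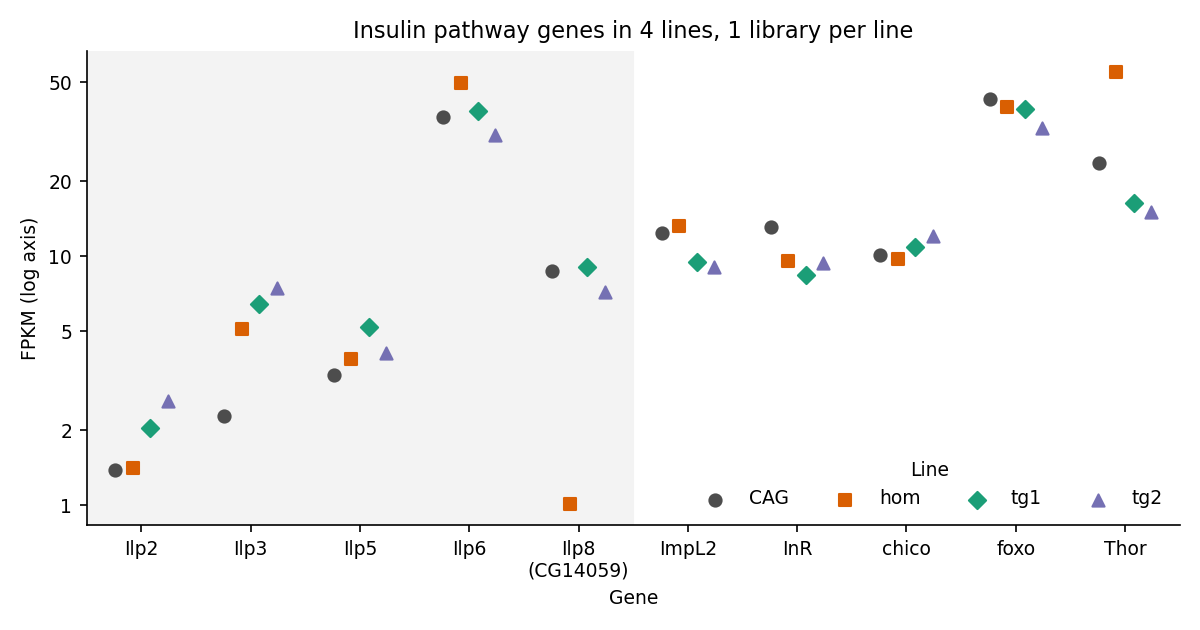
FPKM of each of the 10 genes (log axis) in the 4 libraries, 1 point per library, with the 5 insulin-like peptides on the shaded ground. Ilp8 in hom lies at 1.01 FPKM against 7.18 to 9.01 in the other lines, and Thor in hom lies at 54.7 against 15.1 to 23.6.

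Ilp8 (CG14059, FBgn0036690) encodes a relaxin-like peptide that growing or damaged imaginal discs secrete and that delays metamorphosis through the receptor Lgr3. Its locus lies at 3L:17020621 to 17025180 of the build dm3. The gene had 8.74 FPKM in CAG and 1.01 in hom, with 9.01 in tg1 and 7.18 in tg2. The hom library thus stood alone, and the other 3 lay close together. The difference of hom from CAG was −2.27, an 8.62-fold higher FPKM in CAG. tg1 exceeded hom by 2.31 and tg2 exceeded hom by 2.02. Between tg1 and tg2 the difference was 0.29, and between tg1 and CAG it was 0.04. In rank among all loci, Ilp8 stood at percentile 18.1 in hom and at percentiles 46.2 to 52.7 in the other lines. Its range of 2.31 was wider than that of 98% of the 500 tested loci nearest to it in mean level.

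Neighbouring loci did not show the low value of Ilp8 in hom. Fit2, which ends 402 bases before the Ilp8 span, had 36.7 FPKM in the CAG library, 44.1 in hom, 33.8 in tg1 and 32.2 in tg2. CG7730, which shares the deposited span, had 7.26 FPKM in CAG and 6.66 in hom, with 6.64 in tg1 and 7.26 in tg2. The next loci on the other side, scaf6 and beg, had ranges of 0.21 and 0.26. In the Release 6 annotation Ilp8 overlaps CG7730 on the opposite strand and a long non-coding RNA on its own strand, with 29 of its 867 exonic bases shared. The use of strand in counting is not given, so fragments over those bases cannot be assigned.

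Genes tied to the known sources of Ilp8 were set beside it. Adult follicle cells of the ovary also make Ilp8. Of 14 follicle cell and eggshell loci 10 stayed under 1 FPKM in every library, the defining vitelline membrane gene Vm26Ab was listed at 0 in all 4, and the summed level of the list was 10.3 FPKM in the CAG library, 11.7 in hom, 16.6 in tg1 and 10.99 in tg2. Most of that sum came from the yolk protein genes Yp3 and Yp2 and the eggshell gene Cp15. Yp3 ran from 3.61 FPKM in tg2 to 8.51 in tg1, and Yp2 from 0.787 in hom to 2.30 in tg1. Cp15 ran from 2.69 FPKM in hom to 3.53 in tg2. The part of follicle cell content in the Ilp8 values was not tested. Among genes of JNK signalling and disc damage, which induce Ilp8 in larval discs, 5 loci were tested. Mmp1, a matrix metalloproteinase, had 84.3 FPKM in CAG and 25.4 in hom, with 44.3 in tg1 and 70.8 in tg2. It was lowest in hom, as Ilp8 was, and the difference between tg1 and CAG was −0.91, against 0.04 at Ilp8. The other 4 tested loci of that list, kay, bsk, hep and egr, had no difference past the call. upd3, also on the list, was highest in hom, with 0.281 FPKM there and 0.0309 to 0.0619 in the other lines, all below the minimum. puc and Jra were joined with other genes, so no level of their own was read. Of the Hippo pathway targets ex, th, CycE and fj none was called in any pair, and CycE, a cyclin, had the widest range of 0.59. Over all tested loci 1.19% to 3.78% were called per pair and direction. At such shares few calls would fall in lists this short, so nothing is read from the uncalled JNK and Hippo loci. Lgr3, the Ilp8 receptor, stayed below the minimum with 0.283 FPKM in the CAG library, 0.472 in hom, 0.472 in tg1 and 0.274 in tg2.

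Loci with the profile most like that of Ilp8 over the 4 libraries were sought among 9639 other protein-coding loci without a 0. The distance is the Euclidean distance between mean-centred log2(FPKM + 1) values, over 4 libraries only. The nearest was the lysozyme gene LysD at 0.19, which had 27.99 FPKM in CAG and 5.88 in hom, with 32.1 in tg1 and 23.0 in tg2. LysD has close copies beside it, so its own level is uncertain. CG42683 followed at 0.48 and CG15255 at 0.61. Both were lowest in hom, with 0.112 and 1.28 FPKM there.

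**Figure D2:**
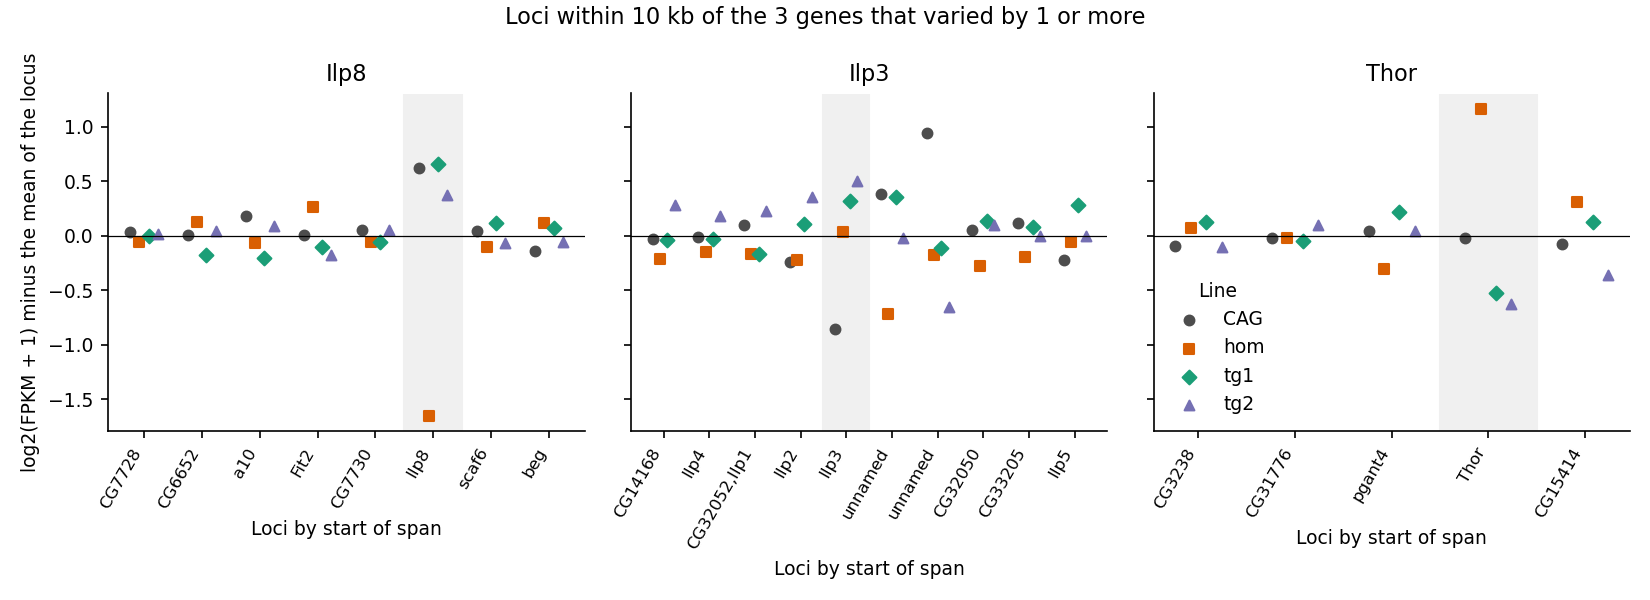
log2(FPKM + 1) minus the mean of the locus (vertical axis) for the loci within 10 kb of Ilp8, Ilp3 and Thor, by start of the deposited span, with 1 point per library and the named gene on the shaded ground. Loci of one span are drawn in no set order. The 7 neighbours of Ilp8 have ranges of 0.09 to 0.44 against 2.31 for Ilp8.

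Ilp2, Ilp3 and Ilp5 encode the peptides that the insulin-producing cells of the brain release, and they control growth and blood sugar. Ilp3 is also made in muscle around the midgut. Ilp2 and Ilp3 share the deposited span 3L:9791534 to 9801813 with Ilp4 and with a joined locus of Ilp1 and CG32052, and Ilp5 lies in the span 3L:9809170 to 9827458. In the Release 6 annotation Ilp2 and Ilp3 overlap CG32052 with no exonic base shared. Ilp5 shares its deposited span with CG33205, at 586 to 730 FPKM, and with CG32050, at 29.4 to 39.4. In Release 6 Ilp5 overlaps CG43897 on the opposite strand, with no exonic base shared. The part of fragments from overlapping genes in the low Ilp5 values, and in the shares below, was not tested.

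Ilp3 (FBgn0044050) had 2.29 FPKM in CAG and 5.08 in hom, with 6.41 in tg1 and 7.44 in tg2. The CAG library stood below the other 3. Both tg lines were called above CAG, by 1.17 in tg1 and 1.36 in tg2, while hom exceeded CAG by 0.89, just short of the call. Its range of 1.36 exceeded that of 91.6% of the 500 loci of like level. With a pseudocount of 5 neither call remained (0.65 and 0.77).

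Ilp2 (FBgn0036046) had the lowest mean level of the set. It had 1.39 FPKM in CAG and 1.41 in hom, with 2.04 in tg1 and 2.61 in tg2, and no difference reached the call. Its order of lines was the same as that of Ilp3, but CAG and hom were nearly equal at Ilp2 and 2.22-fold apart at Ilp3. Ilp5 (FBgn0044048) had 3.35 FPKM in the CAG library, 3.87 in hom, 5.19 in tg1 and 4.08 in tg2, with a largest difference of 0.51 between tg1 and CAG. All 3 brain peptides thus had their lowest value in CAG and both tg values above those of CAG and hom, except that scaling to the protein-coding sum put hom below CAG at Ilp2.

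The shares of Ilp2, Ilp3 and Ilp5 in their summed FPKM also differed between the 4 libraries. Their summed level was 7.02 FPKM in CAG and 10.4 in hom, with 13.6 in tg1 and 14.1 in tg2. Ilp3 held 32.6% of that sum in CAG and 49.0% in hom, with 47.0% in tg1 and 52.6% in tg2. Ilp5 was the most abundant of the 3 in CAG, with 47.6% of the sum, and Ilp3 in each other line. Dsk, a drosulfakinin precursor that the insulin-producing cells also express, had 4.70 FPKM in the CAG library, 2.63 in hom, 5.23 in tg1 and 4.62 in tg2, and was lowest in hom. The 4 single-name neuron markers (elav, Snap25, brp and para) were each lowest in hom and highest in tg2, as deposited and under the 3 other scalings tried. They summed to 121 FPKM in CAG and 88.1 in hom, with 129 in tg1 and 174 in tg2. Snap25 made up most of each sum, with 57.5 FPKM in hom to 125 in tg2, and CAG lay above tg1 at brp and para but below it at elav and Snap25. Of 5 tested peptidergic neuron markers, amon, Dsk, Crz and Pdf were lowest in hom. Phm, an enzyme of peptide amidation, was highest there, with 41.7 FPKM in CAG and 45.9 in hom, with 44.5 in tg1 and 37.5 in tg2. Snap25, a synaptic vesicle fusion protein, and Pdf, a clock neuropeptide, were called higher in tg2 than in hom by 1.11 and 1.02. The part of neuronal content in the values of Ilp2, Ilp3 and Ilp5 was not tested.

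Apart from Ilp2 and Ilp5, named loci around Ilp3 were not lowest in CAG. CG14168, which ends 257 bases before the span, had 48.3 FPKM in CAG and 42.4 in hom, with 47.9 in tg1 and 60.04 in tg2. The joined locus of Ilp1 and CG32052 had a range of 0.40, and no value of Ilp1 alone can be read from it. A pair of unnamed loci between Ilp3 and Ilp5 was highest in CAG, with 3.02 and 10.7 FPKM there. The profiles nearest to that of Ilp3 were those of CG3635 at a distance of 0.24, CG8170 at 0.25 and CG13627 at 0.27, all of them lowest in CAG.

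Ilp4, an embryonic peptide, and Ilp7, made by neurons of the ventral nerve cord, were the remaining peptides with a locus of their own. Ilp4 was listed at 0 in the hom library. Elsewhere it had 0.0992 (CAG), 0.0847 (tg1) and 0.255 FPKM (tg2). The tg2 value was 3.01 times the tg1 value. All of these values lay far below 1 FPKM, and with the total depth unknown their fragment numbers cannot be given. Ilp7 had 1.82 FPKM in CAG and 1.19 in hom, with 1.14 in tg1 and 1.57 in tg2.

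Ilp6 (FBgn0044047, X:2225526 to 2227719) was the most abundant insulin-like peptide in each library. Its product resembles vertebrate insulin-like growth factors and comes from the fat body, where ecdysone raises it in the non-feeding stages. It had 36.2 FPKM in CAG and 49.8 in hom, with 38.3 in tg1 and 30.6 in tg2. The hom value was the highest and tg2 the lowest, with a difference of −0.68 between them that was short of the call. Per length of transcript, Ilp6 stood at 5.15 times the summed brain peptides in CAG and 4.80 times in hom, with 2.81 times in tg1 and 2.17 times in tg2. The gene that follows in the deposited spans, phl (the kinase Raf), had a range of 0.13. In Release 6 Raf overlaps Ilp6 on the opposite strand, with no exonic base shared.

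ImpL2 (FBgn0001257, 3L:4215137 to 4236150) encodes a secreted protein that binds insulin-like peptides and limits their action. ImpL2 had 12.4 FPKM in CAG and 13.2 in hom, with 9.46 in tg1 and 9.05 in tg2. Both tg values lay below those of CAG and hom, with a largest difference of −0.50 between tg2 and hom. In Release 6 ImpL2 shares 61.9% of its exonic bases with CG46460 on the same strand, so its level is uncertain to that extent. Sdr, a secreted decoy of the receptor listed as CG3837, had 2.74 FPKM in the CAG library, 1.56 in hom, 1.87 in tg1 and 2.43 in tg2. conv, a partner in peptide binding, had a range of 0.21.

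InR (FBgn0283499, 3R:17396005 to 17445078), the insulin receptor, had 13.1 FPKM in CAG and 9.61 in hom, with 8.41 in tg1 and 9.42 in tg2. CAG was the highest and the other 3 lay close together, with a largest difference of −0.58 between tg1 and CAG. chico (FBgn0024248, 2L:10242512 to 10247064), the receptor substrate that couples InR to the lipid kinase, had the narrowest range of the set at 0.28. It had 10.1 FPKM in the CAG library, 9.77 in hom, 10.9 in tg1 and 12.05 in tg2. Per length, InR stood at 1.29 times chico in CAG and 0.983 times in hom, with 0.770 times in tg1 and 0.782 times in tg2. In Release 6 an antisense RNA shares 10.6% of the exonic bases of chico.

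**Figure D3:**
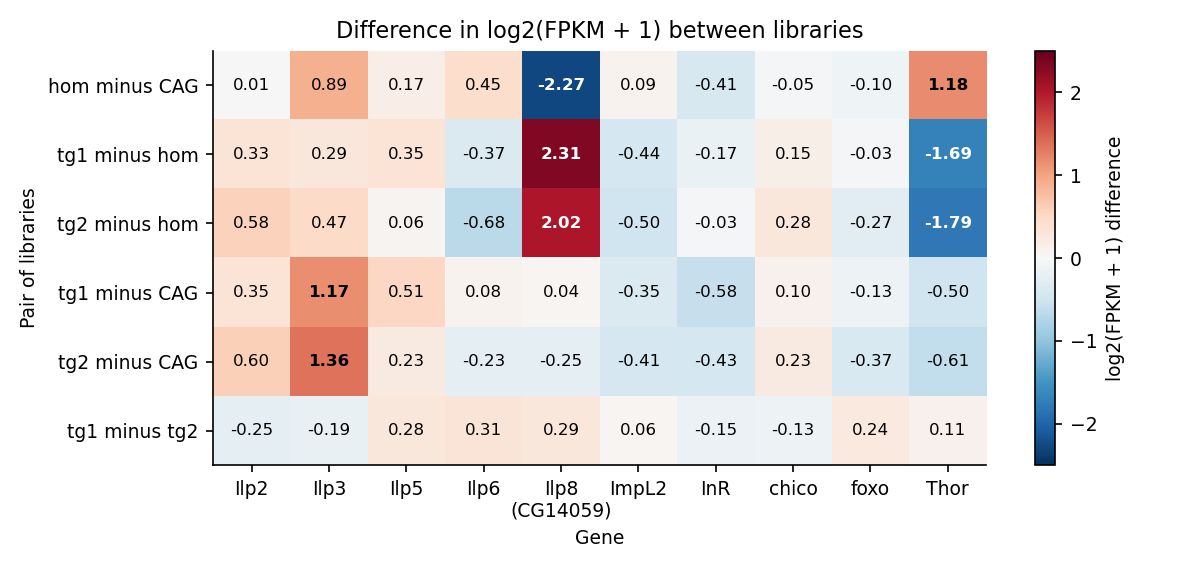
Differences in log2(FPKM + 1) for the 6 pairs of libraries (rows) and the 10 genes (columns), coloured by value, with those of at least 1 in bold. Bold values stand under Ilp8 and Thor in the 3 pairs with hom and under Ilp3 in the comparisons of tg1 and tg2 with CAG.

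The genes that act between chico and foxo varied little. All 8 listed genes of this step were tested, with a median range of 0.12 against 0.42 over all tested loci. None was called in any of the 6 pairs, where 1.19% to 3.78% of all tested loci were called per direction. Pdk1, the kinase that activates Akt and listed as Pk61C, was the most abundant with 54.7 to 58.3 FPKM. Akt1 had 25.6 FPKM in the CAG library, 23.6 in hom, 24.0 in tg1 and 24.4 in tg2. Of the TOR branch 7 loci were tested and none was called, with a median range of 0.22. REPTOR, a transcription factor held back by TOR and listed as CG13624, had the widest range there at 0.44. Rheb and raptor were joined with other genes, so no level of their own was read.

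foxo (FBgn0038197, 3R:9882674 to 9913698) was the most abundant of the 10 genes in CAG, tg1 and tg2. foxo had 42.7 FPKM in CAG and 39.7 in hom, with 38.9 in tg1 and 32.8 in tg2. tg2 was the lowest, by −0.37 against CAG.

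Thor (FBgn0261560, 2L:3478434 to 3479612) encodes the 4E-BP that binds the cap-binding protein eIF-4E. It had 23.6 FPKM in the CAG library, 54.7 in hom, 16.3 in tg1 and 15.1 in tg2. hom stood above the other lines, and Thor was the most abundant of the 10 genes there. The difference of hom from CAG was 1.18, and tg1 and tg2 differed from hom by −1.69 and −1.79. tg1 and tg2 were also below CAG, by −0.50 and −0.61, short of the call. The range of 1.79 was wider than that of 98.4% of the 500 loci of like level. Thor stood at 0.552 times foxo in CAG and 1.38 times in hom, with 0.420 times in tg1 and 0.461 times in tg2. eIF-4E itself had 149 FPKM in CAG and 145 in hom, with 150 in tg1 and 125 in tg2, so the level of eIF-4E per length was 2.65 times that of Thor in hom and 6.33 to 9.19 times in the other lines. No other gene overlaps Thor in Release 6, and its neighbours pgant4 and CG15414 had ranges of 0.52 and 0.67. CG15414 was also highest in hom, with 56.8 FPKM in that line, 43.2 in CAG, and 49.7 and 35.3 in tg1 and tg2.

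Both listed genes that foxo is known to turn on, the lipase genes bmm and Lip4, were highest in hom and lowest in tg2, without a call. bmm, the lipase of fat droplets, had 27.6 FPKM in the CAG library, 35.5 in hom, 23.5 in tg1 and 18.7 in tg2. Lip4, a second lipase, had 24.7 FPKM in CAG and 33.3 in hom, with 30.2 in tg1 and 21.4 in tg2. InR, which foxo also turns on when insulin is low, was not highest in hom. The part of foxo activity in the values of these genes and of Thor was not tested.

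The listed fat body genes, most of them for storage proteins, were also highest in hom when summed. The 6 single-name fat body loci summed to 4185 FPKM in the CAG library, 9918 in hom, 3391 in tg1 and 3233 in tg2, and none was listed at 0. Of the 6, 4 were called higher in hom than in CAG, with a median difference of 1.28. Over all tested loci that share was 1.87%. Against hom, 4 were called lower in tg1 and 5 in tg2, where 1.72% and 2.69% of all tested loci were. Called in at least 1 pair with hom were the storage proteins Lsp1alpha, Lsp1beta, Lsp2 and Lsp1gamma and the storage protein receptor Fbp1. These loci made up most of each sum, so the sums mainly describe them. The remaining locus, Rfabg, was called in no pair. Its highest value was 788 FPKM in hom, against 473 to 538 in the other lines, and hom exceeded CAG by 0.62. The profile nearest to that of Thor among 9639 loci was that of Fbp1, at a distance of 0.20, with 914 FPKM in CAG and 2460.2 in hom, with 761 in tg1 and 660.1 in tg2. CG31076 followed at 0.24 and the cytochrome P450 gene Cyp4d1 at 0.24, both highest in hom. The part of fat body content in the Thor values was not tested. Ilp6 and CCHa2, another fat body hormone, were likewise highest in hom. CCHa2 (listed as CG14375) had 72.9 FPKM in the CAG library, 108 in hom, 73.7 in tg1 and 67.7 in tg2. Of 8 tested ecdysone response loci, br, a transcription factor of the pupal switch, was called once, with 9.78 FPKM in hom against 4.25 in tg1. The other 7 were called in no pair.

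**Figure D4:**
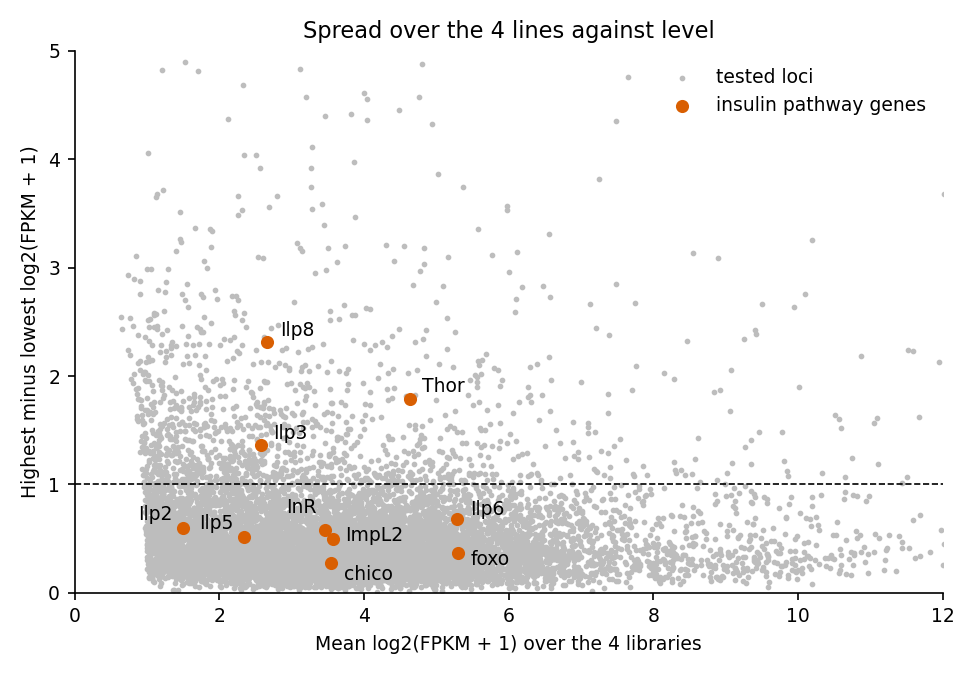
Highest minus lowest log2(FPKM + 1) over the 4 libraries (vertical axis) against the mean log2(FPKM + 1) (horizontal axis) for the tested loci in grey and the 10 genes in orange. The dashed line marks a range of 1, and 127 of the 11689 loci lie outside the axes. Ilp8, Thor and Ilp3 lie above the line and the other 7 genes below it.

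Counted over the set, hom against CAG had 1 of 10 genes called higher (Thor) and 1 lower (Ilp8), against 1.87% and 3.43% of all tested loci. In tg1 against hom, Ilp8 was called higher and Thor lower, against 1.82% and 1.72% of tested loci. In tg2 against hom the same 2 genes were called in the same directions, against 3.78% and 2.69%. These 3 comparisons share the hom library, so they are not separate observations of it. In tg1 against CAG only Ilp3 was called, higher, against 1.19% called higher and 2.36% lower over all tested loci. In tg2 against CAG Ilp3 was again the only gene called, with a background of 2.25% higher and 2.34% lower. These 2 comparisons share the CAG library. Between tg1 and tg2 none of the 10 genes was called, where 1.33% of tested loci were higher in tg1 and 1.98% lower, and the largest difference was 0.31 at Ilp6. With 10 genes chosen for their values, nothing is read from these shares.

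The values of tg1 and tg2 lay on the same side of both CAG and hom at 8 of the 10 genes, a count made after the values were seen. They were above at Ilp2, Ilp3, Ilp5 and chico and below at ImpL2, InR, foxo and Thor. Over all tested loci this held for 38.8%, with 18.3% above and 20.4% below. At most of these genes the gaps were well short of the call. At InR, tg2 and hom differed by −0.03, and the sign turned under scaling to the protein-coding sum.

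Of the wider pathway, 40 genes in 7 lists were looked up and 27 were tested, among them other peptides, binding proteins, the Akt cascade, TOR, foxo targets, signals to the insulin-producing cells and the adipokinetic hormone axis. None of the 27 was called in any of the 6 pairs, where 1.19% to 3.78% of all tested loci were called per direction. At such shares few calls would fall among 27 loci, so nothing is read from this count. The ranges of the 27 ran from 0.07 to 0.89 with a median of 0.22, against 0.42 over all tested loci. A further 5 stayed below 1 FPKM on average, 6 were joined with other genes and 2 had no single-name locus. Among signals to the insulin-producing cells, sNPF, a brain neuropeptide, had the widest range at 0.77, with 10.8 FPKM in CAG and 9.82 in hom, with 12.4 in tg1 and 17.4 in tg2. upd2, a leptin-like fat body signal, had 0.533 FPKM in hom and 0.0545 to 0.0680 in the other lines, all below the minimum. AkhR, the receptor of the hormone that opposes insulin and listed as GRHR, had 15.0 FPKM in the CAG library, 15.9 in hom, 14.1 in tg1 and 15.4 in tg2.

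**Figure D5:**
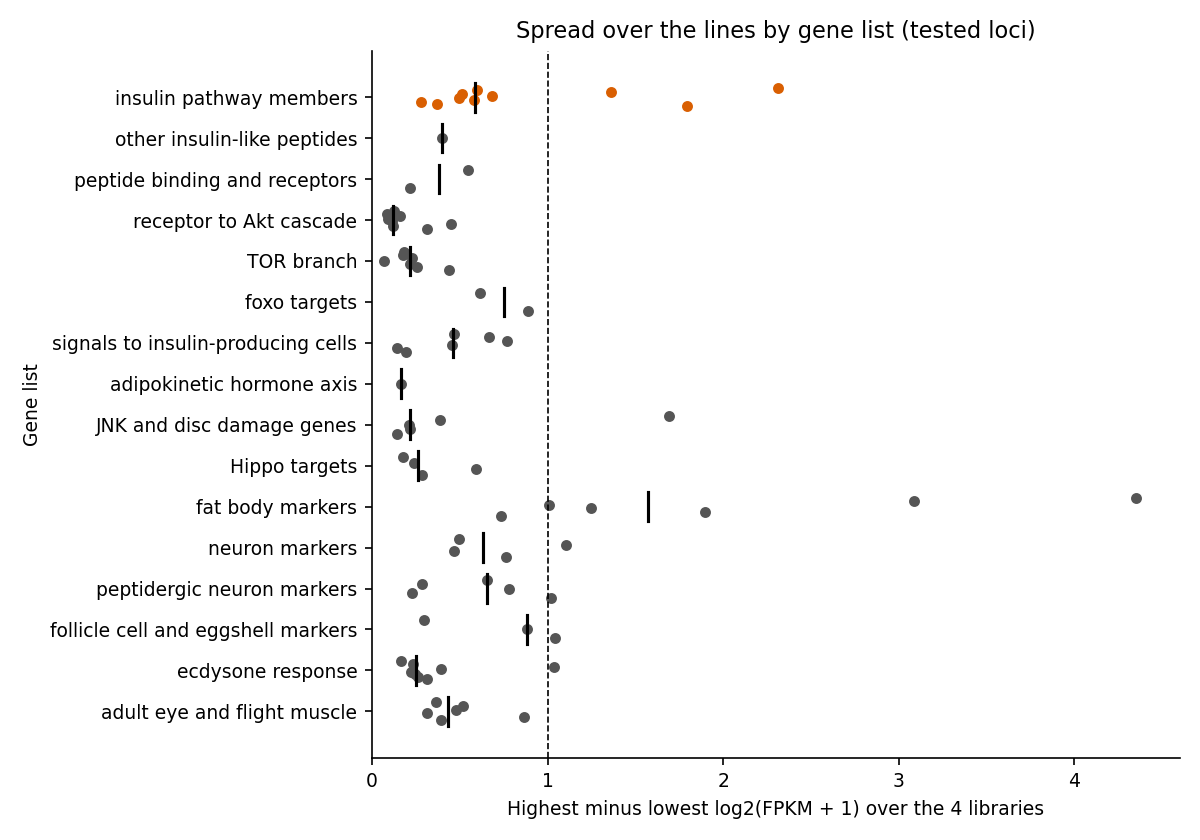
Highest minus lowest log2(FPKM + 1) over the 4 libraries for each tested locus (points) of each gene list (rows), with the list median as a black bar and a dashed line at 1. The lists of the wider pathway stay below 1, while 5 of the 6 fat body loci lie above it.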

How the data were processed

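RNA of pharate adults was sequenced after removal of ribosomal RNA, with DNase treatment, a TruSeq kit and paired 48-nt reads, per the labels' protocols. The build dm3 and the tools Cufflinks, TopHat, bedtools and SAMtools are named, with no version, per the submitters' processing notes. The authors deposited FPKM, per the file headers, with 1 value per locus and library. The sources used here do not give the annotation, the use of strand, the handling of multiply mapped reads or the depth. A deposited locus can span several genes, and overlapping genes can share fragments.

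Deposited starts count from 0 and are printed from 1. Release 6 tables gave names, FlyBase identifiers and overlaps only. Log2(FPKM + 1) differences, calls and ranges were computed with Python 3.11.15, numpy 2.4.6 and pandas 2.3.3. The calling code was tested on simulated data. Relative depth is the most frequent ratio of CAG to each library among 237 to 283 loci under 0.3 FPKM, of which 48 to 75 lay within 3% of it.

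The 10 genes and all lists were chosen with earlier results of these data known. Genes named beside the 10 are list members called in a pair where 1 of the 10 was called, otherwise the most abundant and most variable of a list. To these come the 3 nearest profiles and the adjacent loci of genes with a range of at least 1. Others (Ilp4, Akt1, Lgr3, Sdr, upd2, upd3, eIF-4E, Dsk, Rfabg, kay, bsk, hep, egr, ex, fj) were named for their roles. Alternatives were pseudocounts of 0.1 and 5, no filter, a 5 FPKM filter, median centring, trimmed-mean scaling, scaling to the protein-coding sum, and leaving out loci listed at 0.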

Additional observations from a re-analysis of the deposited data

How the results depend on the processing

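Of 468 recomputed differences of the 10 genes, 465 stayed on their side of the call, 2 fell below it, 1 rose above it and 0 reversed a call. All 3 were at Ilp3. A pseudocount of 0.1 called hom above CAG (1.12), and a pseudocount of 5 left 0 genes called in tg1 against CAG (0.65 at Ilp3) and 0 in tg2 against CAG (0.77). The calls at Ilp8 and Thor held under each pseudocount and each scaling. The changes of filter and leaving out loci listed at 0 cannot alter the difference of a gene. Their values among the 468 therefore only repeat the main ones. Scaling to the protein-coding sum turned the sign of 3 uncalled differences, all within 0.06 of 0: Ilp2 in hom minus CAG (−0.01), InR in tg2 minus hom (0.04) and ImpL2 in tg1 minus tg2 (−0.00062). No scaling moved the median of tested loci by over 0.1.

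Counts over all tested loci moved too. With a pseudocount of 0.1 they rose to 904 from 620 in hom against CAG and 699 from 414 in tg1 against hom. They reached 689 from 415 in tg1 against CAG, 808 from 536 in tg2 against CAG and 622 from 387 in tg1 against tg2. A pseudocount of 5 and a minimum of 5 FPKM gave 301 and 377 (from 620) in hom against CAG, 181 and 258 in tg1 against hom, 341 and 475 (from 757) in tg2 against hom, 188 and 246 in tg1 against CAG, 234 and 318 in tg2 against CAG, and 160 and 218 in tg1 against tg2. Marker loci called with a pseudocount of 0.1 were 4 (from 2) in tg1 against CAG and 2 (from 0) in tg2 against CAG, and 0 (from 1) in tg1 against tg2 with a pseudocount of 5 or scaling to the protein-coding sum.

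No paired analysis was possible because each line has 1 library, which also left no replicate to leave out. The total depth is unknown, so no counting error can be given for Ilp2, Ilp3, Ilp5 and Ilp8, the members with the lowest FPKM.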
